A study of Rattus norvegicus with 6 samples.

Results

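The 44 genes described here encode Wnt ligands, frizzled and LRP receptors, R-spondins, secreted antagonists of the pathway, and intracellular genes that belong to its feedback and transcription arms. They were taken by symbol from 14324 named genes on a whole-transcript array: every measured gene whose symbol is Wnt, Fzd, Sfrp or Dkk followed by a number, together with Frzb, Wif1, Lrp5, Lrp6, Axin2, Lef1, Tcf7, Nkd1, Nkd2, Rspo1, Rspo2 and Rspo3. The rule used symbols only, but it was set with earlier results of these data known. Each of the 44 had a single row in the deposited table. By role they were 17 Wnt ligands, 7 frizzled receptors, 2 LRP co-receptors, 3 R-spondins, 6 secreted Wnt-binding antagonists, 4 Dickkopf inhibitors and 5 intracellular feedback genes or TCF factors.

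All RNA came from the aorta of male Fisher 344 rats (an inbred strain) of 1-2 months. The day 1 group was aortic rings embedded in collagen gel and cultured for 1 day in EBM, an endothelial basal medium, without serum. The day 0 group was rings frozen fresh after harvest. Each group had 3 arrays, called biological replicates in the labels, and each array carried RNA pooled from 4 to 6 rings or cultures. It is not stated if one animal gave rings to several pools, and p-values here cover only pool-to-pool spread. The collagen gel went into the lysate with the cultured rings.

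Wnt proteins are secreted lipid-modified signals that bind frizzled receptors. With an LRP5 or LRP6 co-receptor they keep beta-catenin from being destroyed, and beta-catenin then acts with TCF and LEF factors in the nucleus. Other Wnt-frizzled pairs act on cell polarity and calcium without beta-catenin. Secreted frizzled-related proteins soak up ligand, Dickkopf proteins block LRP, R-spondins keep receptors at the surface, and Axin2 and the naked cuticle genes are induced by the pathway and damp it. In the vessel wall the pathway is known for its part in smooth muscle growth and in the formation of vessels.

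Values are log2 expression values as deposited, and a difference is day 1 minus day 0 on that scale with its standard error after ± (n = 3 arrays per group). Adjusted p-values come from limma, a linear model with a moderated variance fitted to all 14324 genes, with Benjamini-Hochberg adjustment and a threshold of 0.05. Rose and fell are used of genes past it. Levels of different genes are not compared, since each probe set has its own brightness.

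After 1 day of culture 21 of the 44 genes fell and 1 rose. The largest falls were those of the secreted antagonists Sfrp2 (6.25-fold lower) and Sfrp1 (5.03-fold lower), followed by the receptors Fzd2 (2.46-fold) and Fzd4 (2.04-fold). The single rise was that of the ligand Wnt16, 3.55-fold higher. Over all genes 48.3% passed the threshold, 20.7% downward and 27.6% upward. The share of the 44 that passed in either direction, 50%, was therefore close to that background, while the directions differed from it, with 47.7% of the 44 falling and 2.27% rising. The median difference was -0.21 for the 44 and -0.01 for all genes.

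Most of the changes were small. Falls of 1.5-fold or more were found in 8 of the 44 (18.2%), beside 7.98% of all genes, and falls of 2-fold or more in 4 (9.09%), beside 4.11%. Wnt16 alone rose by those sizes, beside 10.9% of all genes at 1.5-fold and 4.13% at 2-fold. All 3 day 1 arrays lay below all 3 day 0 arrays for 26 of the 44 (59.1%), beside 25.5% of all genes, and above them for 1 (2.27%), beside 31.4%. Differences below 0 of any size were found in 36 of the 44 (81.8%), beside 51.5% of all genes. The cumulative curves show the same: that of the 44 lies to the left of that of all genes through most of its length. The genes set beside the 44 were not matched to them for brightness. The lower quartile of every day 1 array lay under that of every day 0 array. The part of this shift in the differences below 0 was not tested.

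**Figure D1:**
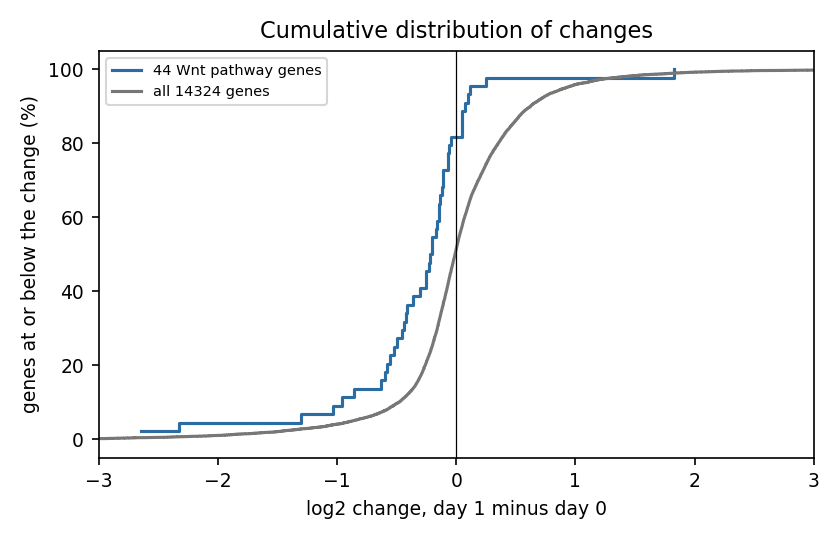
Cumulative share of genes (y axis, percent) at or below each log2 difference, day 1 minus day 0 (x axis), for the 44 Wnt pathway genes (blue) and all 14324 genes (grey). The blue curve crosses 0 at 81.8%, the grey curve at 51.5%; 1 Wnt gene stands far to the right, Wnt16 at 1.83.

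Promoter sequences are shown for the gene that rose, for the gene with the largest fall, and for the feedback genes Axin2 and Nkd1, whose transcription is known to respond to beta-catenin. They are RefSeq windows on the rat assembly GRCr8, from 250 bases before the annotated start to 50 bases after it, and 31 of the 44 genes had such a window. Windows were searched on both strands for the TCF/LEF letters CTTTGAT and the AP-1 letters TGANTCA, which do not overlap each other in these windows. Capitals mark the matches, and Sfrp2 has none. The windows are Wnt16 at chr4:51786478-51786777 (+ strand), Sfrp2 at chr2:171387286-171387585 (+ strand), Axin2 at chr10:94398535-94398834 (+ strand) and Nkd1 at chr19:34722797-34723096 (- strand), each written along its gene.
Wnt16: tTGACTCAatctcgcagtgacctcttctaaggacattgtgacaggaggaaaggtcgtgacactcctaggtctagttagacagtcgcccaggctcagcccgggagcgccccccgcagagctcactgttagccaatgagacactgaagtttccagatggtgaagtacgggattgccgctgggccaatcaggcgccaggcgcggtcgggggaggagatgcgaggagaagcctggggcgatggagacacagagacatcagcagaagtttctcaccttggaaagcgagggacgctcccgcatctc
Sfrp2: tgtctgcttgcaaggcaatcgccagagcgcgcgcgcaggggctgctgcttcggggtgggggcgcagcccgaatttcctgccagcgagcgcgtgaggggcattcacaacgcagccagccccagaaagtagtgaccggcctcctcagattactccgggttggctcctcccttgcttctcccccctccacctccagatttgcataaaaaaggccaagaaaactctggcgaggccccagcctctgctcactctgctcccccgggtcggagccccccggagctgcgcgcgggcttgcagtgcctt
Axin2: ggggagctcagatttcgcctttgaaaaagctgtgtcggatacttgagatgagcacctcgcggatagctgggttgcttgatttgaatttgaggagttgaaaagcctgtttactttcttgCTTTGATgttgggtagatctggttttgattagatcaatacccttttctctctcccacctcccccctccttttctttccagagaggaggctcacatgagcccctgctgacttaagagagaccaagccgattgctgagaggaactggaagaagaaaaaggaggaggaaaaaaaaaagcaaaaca
Nkd1: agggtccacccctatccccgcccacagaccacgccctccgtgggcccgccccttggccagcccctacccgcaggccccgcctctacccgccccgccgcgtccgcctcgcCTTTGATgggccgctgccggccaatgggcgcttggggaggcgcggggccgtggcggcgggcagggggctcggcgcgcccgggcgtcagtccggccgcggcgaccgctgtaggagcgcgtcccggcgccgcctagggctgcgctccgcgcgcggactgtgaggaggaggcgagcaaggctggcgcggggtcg
The letters CTTTGAT stood in 3 of the 31 windows, those of Axin2 (starting at base 119 of the window), Nkd1 (base 110) and Tcf7 (base 247), and in 3.63% of the 33469 windows in the table, some genes having several. The AP-1 letters stood in 2 of the 31, Wnt16 (base 2) and Lef1 (base 61), and in 7.33% of all windows. A match is a description of the letters only. Axin2 and Nkd1 fell, Wnt16 rose, and Tcf7 and Lef1 did not pass the threshold.

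Among the 17 Wnt ligands 1 rose, 7 fell and 9 did not pass, with a median difference of -0.20. Wnt16, a ligand best known from studies of bone in mice and humans, stood at 7.97, 7.91 and 7.87 in day 1 cultures, against 6.18, 6.11 and 5.96 in day 0 rings. Every cultured array stood well above every fresh one. The difference was 1.83 ± 0.07 (adjusted p = 7.09e-07), rank 153 among the rises of all genes.

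Wnt5a, the prototype of ligands that act without beta-catenin, had 6.85, 6.68 and 6.93 in day 1 cultures, against 7.72, 7.40 and 7.24 in day 0 rings. The day 0 arrays were spread over a wider range than the day 1 arrays but did not overlap them. Wnt5a fell by 0.63 ± 0.13 (adjusted p = 0.00376). Its close relative Wnt5b stood at 6.48, 6.24 and 6.23 on day 1, against 6.85, 6.90 and 6.76 on day 0, and fell by 0.52 ± 0.08 (adjusted p = 0.00123). Both members of this subfamily were thus lower in every cultured array.

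Smaller falls were measured for 5 other ligands. Wnt2, a ligand that can signal through beta-catenin, had 5.52, 5.62 and 5.52 on day 1, against 5.97, 5.89 and 6.10 on day 0 (-0.44 ± 0.07, adjusted p = 0.00157). Wnt10a, known from the development of teeth and skin appendages, had 5.42, 5.72 and 5.53 on day 1, against 5.90, 6.02 and 6.02 on day 0 (-0.42 ± 0.09, adjusted p = 0.00440). In both genes the groups did not overlap, though their nearest arrays were close. Wnt9a, known from joint formation, had 7.38, 7.19 and 7.15 on day 1, against 7.46, 7.57 and 7.60 on day 0 (-0.30 ± 0.08, adjusted p = 0.0144). Leaving out day 1 replicate 2 or day 1 replicate 3 ended its call, at adjusted p = 0.0501 and 0.0513 in that order.

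Wnt2b and Wnt6 passed with the smallest differences, -0.23 ± 0.07 (adjusted p = 0.0299) and -0.20 ± 0.07 (adjusted p = 0.0386). Wnt2b had 5.27, 5.14 and 5.10 on day 1, against 5.41, 5.47 and 5.32 on day 0. Wnt6 had 5.98, 5.89 and 5.82 on day 1, against 6.13, 6.04 and 6.13 on day 0. The day 1 arrays were all lower in both genes, with the nearest arrays of opposite groups almost touching. Neither call held when arrays were median-centred (adjusted p = 0.0787 for Wnt2b and 0.114 for Wnt6) or quantile-normalized (adjusted p = 0.136 and 0.0886 in the same order). Leaving out any 1 of day 0 replicate 1, day 1 replicate 2 and day 1 replicate 3 ended both calls, as did day 0 replicate 2 for Wnt2b and day 0 replicate 3 for Wnt6 (adjusted p from 0.0729 to 0.118).

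The 9 ligands that did not pass were Wnt1, Wnt3, Wnt3a, Wnt4, Wnt7b, Wnt8a, Wnt8b, Wnt9b and Wnt10b. Their differences ran from -0.26 (Wnt4) to 0.25 (Wnt7b), and their 95% intervals together from -0.54 to 0.48, the ends being the lower bound of Wnt4 and the upper bound of Wnt7b. Wnt7b, a ligand known from the brain's vessels, had 5.99, 5.81 and 6.07 on day 1, against 5.61, 5.87 and 5.64 on day 0 (0.25 ± 0.10, adjusted p = 0.0653), and the groups overlapped. It passed, upward, with median centring (adjusted p = 0.0266) and quantile normalization (adjusted p = 0.0285). Wnt1 was the most variable ligand among fresh rings, at 4.46, 4.91 and 5.30 on day 0, beside 4.84, 4.78 and 4.87 on day 1.

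Several Wnt genes lie next to each other on the rat genome, in an arrangement kept among vertebrates. Wnt6 and Wnt10a, neighbours on chromosome 9, both fell. Wnt9a fell by 0.30 while its neighbour Wnt3a on chromosome 10 was at -0.07 ± 0.10 (adjusted p = 0.584). The other pairs, Wnt9b with Wnt3 on chromosome 10 and Wnt10b with Wnt1 on chromosome 7, did not pass, at -0.20, -0.14, -0.12 and -0.06 in that order. Whether neighbours differ from each other was not tested.

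**Figure D2:**
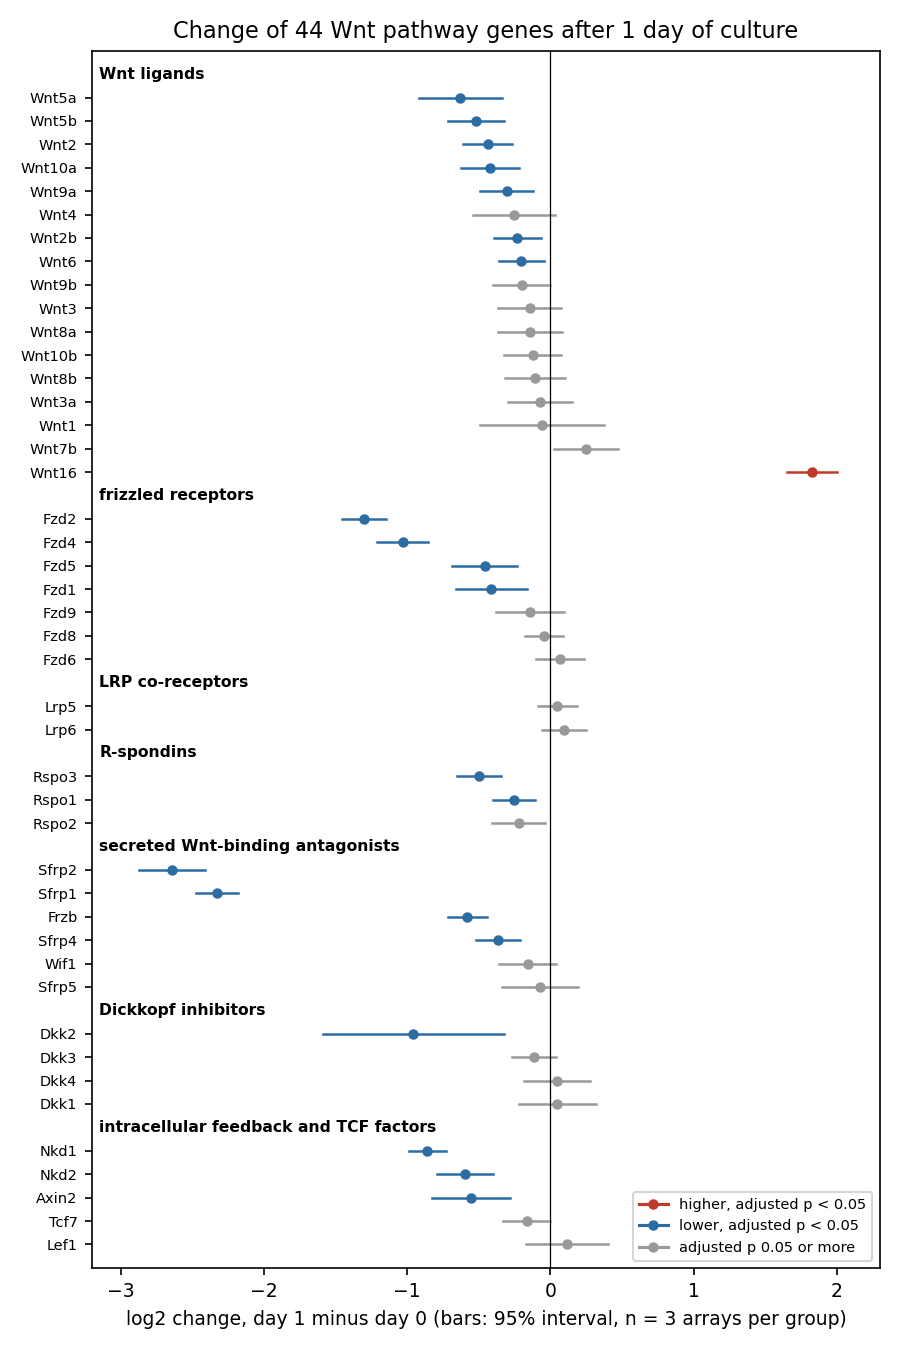
Log2 difference, day 1 minus day 0 (x axis), for each of the 44 genes (rows, grouped by role), with 95% intervals from limma (n = 3 arrays per group); red rose, blue fell, grey did not pass an adjusted p of 0.05. The secreted antagonists Sfrp2 at -2.64 and Sfrp1 at -2.33 lie farthest left, and Wnt16 at 1.83 is the only red point.

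Of the 7 frizzled receptors 4 fell, none rose and 3 did not pass, with a median of -0.41. Fzd2, a receptor for Wnt5a among other ligands, had 8.53, 8.47 and 8.39 in day 1 cultures, against 9.82, 9.70 and 9.77 in day 0 rings. The 2 groups each kept within a narrow band, far from the other. The difference was -1.30 ± 0.07 (adjusted p = 2.16e-06). Fzd4, which also serves as the receptor for norrin in the growth of retinal vessels, had 8.07, 7.88 and 7.97 on day 1, against 9.04, 8.90 and 9.07 on day 0. It fell by 1.03 ± 0.08 (adjusted p = 1.78e-05), again without overlap.

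Fzd5 and Fzd1 fell less. Fzd5 had 6.81, 7.16 and 6.90 on day 1, against 7.39, 7.49 and 7.35 on day 0 (-0.46 ± 0.10, adjusted p = 0.00526). Fzd1 had 7.54, 7.61 and 7.78 on day 1, against 8.26, 7.90 and 8.00 on day 0 (-0.41 ± 0.11, adjusted p = 0.0141). Their groups did not overlap but came close at the nearest arrays. The receptors Fzd6, Fzd8 and Fzd9 did not pass. Fzd8 had 9.34, 9.28 and 9.29 on day 1, beside 9.34, 9.32 and 9.37 on day 0, with a 95% interval of -0.17 to 0.09. Fzd6 was at 0.07 ± 0.07 and Fzd9 at -0.14 ± 0.10.

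Both LRP co-receptors, which join frizzleds in the beta-catenin branch, missed the threshold with narrow intervals. Lrp6 had 10.65, 10.54 and 10.52 on day 1, beside 10.55, 10.42 and 10.45 on day 0 (0.10 ± 0.07, 95% interval -0.06 to 0.25, adjusted p = 0.282). Lrp5 was at 0.05 ± 0.06 (95% interval -0.09 to 0.19, adjusted p = 0.542). The groups overlapped in both genes.

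R-spondins bind Lgr receptors and so protect frizzleds from removal. Rspo3, known from vessel development in mice, had 7.90, 7.80 and 7.79 on day 1, against 8.39, 8.35 and 8.25 on day 0, and fell by 0.50 ± 0.07 (adjusted p = 4.56e-04). Rspo1 had 6.28, 6.36 and 6.42 on day 1, against 6.57, 6.65 and 6.60 on day 0, and fell by 0.25 ± 0.06 (adjusted p = 0.0113). Neither gene's groups overlapped. Rspo2 was at -0.22 ± 0.08 and missed the threshold (adjusted p = 0.0535), its day 1 arrays at 4.91, 4.77 and 5.01 all below the day 0 arrays at 5.11, 5.05 and 5.19. It passed without day 1 replicate 3 (-0.28, adjusted p = 0.0325) and without the dimmest 25% of genes (adjusted p = 0.0309).

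The secreted Wnt-binding antagonists held the largest changes of the 44 genes. Of the 6, 4 fell, none rose and 2 did not pass, with a median of -0.47. Sfrp2 had 8.09, 8.11 and 8.40 in day 1 cultures, against 10.95, 10.74 and 10.84 in day 0 rings. Even the highest cultured array stood far under the lowest fresh one. The difference was -2.64 ± 0.10 (adjusted p = 4.69e-07), rank 65 among the falls of all 14324 genes. Sfrp1 had 6.49, 6.33 and 6.45 on day 1, against 8.75, 8.77 and 8.74 on day 0. Its fresh rings were almost identical (SD 0.01), and it fell by 2.33 ± 0.06 (adjusted p = 1.28e-07), rank 102.

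Frzb, also called secreted frizzled-related protein 3 and known from cartilage, had 11.78, 11.89 and 11.81 on day 1, against 12.42, 12.39 and 12.42 on day 0, and fell by 0.58 ± 0.06 (adjusted p = 9.61e-05). Sfrp4 had 9.62, 9.60 and 9.74 on day 1, against 9.95, 10.05 and 10.06 on day 0, and fell by 0.36 ± 0.07 (adjusted p = 0.00257). In both the groups were apart, by much less than in Sfrp1 and Sfrp2. Sfrp5 was at -0.07 ± 0.11 (adjusted p = 0.648). Wif1, which binds Wnt through a domain of another kind, was at -0.16 ± 0.09 (adjusted p = 0.170), with 5.36, 5.32 and 5.06 on day 1, beside 5.41 in each of the day 0 arrays. The 95% intervals of Sfrp5 and Wif1 together spanned -0.36 to 0.19.

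Of the 4 Dickkopf genes 1 fell. Dkk2 had 5.33, 4.87 and 5.44 in day 1 cultures, against 6.42, 6.57 and 5.52 in day 0 rings. Day 0 replicate 3 lay close to the cultured arrays, away from the other fresh ones. The difference was -0.96 ± 0.27 (adjusted p = 0.0209), with the largest standard error of the 44 genes. Its call ended when day 0 replicate 1 (-0.83, adjusted p = 0.0663), day 0 replicate 2 (-0.75, adjusted p = 0.0678) or day 1 replicate 2 (-0.79, adjusted p = 0.0673) was left out. Dkk1, the best known LRP blocker of the family, was at 0.05 ± 0.12 (adjusted p = 0.764) and Dkk4 at 0.04 ± 0.10 (adjusted p = 0.742).

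Dkk3, a divergent member not known to act on LRP as Dkk1 does, depended on the scaling of the arrays. It had 12.22, 12.21 and 12.07 on day 1, beside 12.29, 12.32 and 12.25 on day 0 (-0.11 ± 0.07, adjusted p = 0.194). All day 1 arrays were lower, the nearest arrays of opposite groups by very little. With quantile normalization the difference was -0.33 (adjusted p = 0.00437), and with median centring it was -0.0644 (adjusted p = 0.496). An intensity trend in the model, which is no scaling, left the difference as it was and gave an adjusted p of 0.0309.

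Of the 5 intracellular genes 3 fell, all of them feedback inhibitors, and the 2 transcription factors did not pass. The median of the 5 was -0.56. Nkd1, which binds Dishevelled and is induced by Wnt signalling, had 7.37 on all 3 day 1 arrays, against 8.23, 8.27 and 8.18 on day 0, and fell by 0.86 ± 0.06 (adjusted p = 8.78e-06). Nkd2 had 5.93, 5.85 and 5.95 on day 1, against 6.36, 6.50 and 6.65 on day 0, and fell by 0.60 ± 0.08 (adjusted p = 6.19e-04). Axin2, a scaffold of the beta-catenin destruction complex and a widely used readout of the pathway, had 6.05, 6.22 and 5.86 on day 1, against 6.74, 6.40 and 6.67 on day 0. It fell by 0.56 ± 0.12 (adjusted p = 0.00510). No cultured array of the 3 genes reached the level of a fresh one. Of the transcription factors, Tcf7 was at -0.17 ± 0.07 (adjusted p = 0.0888) and Lef1 at 0.12 ± 0.12 (adjusted p = 0.478). Tcf7 passed without day 1 replicate 3 (-0.22, adjusted p = 0.0388).

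**Figure D3:**
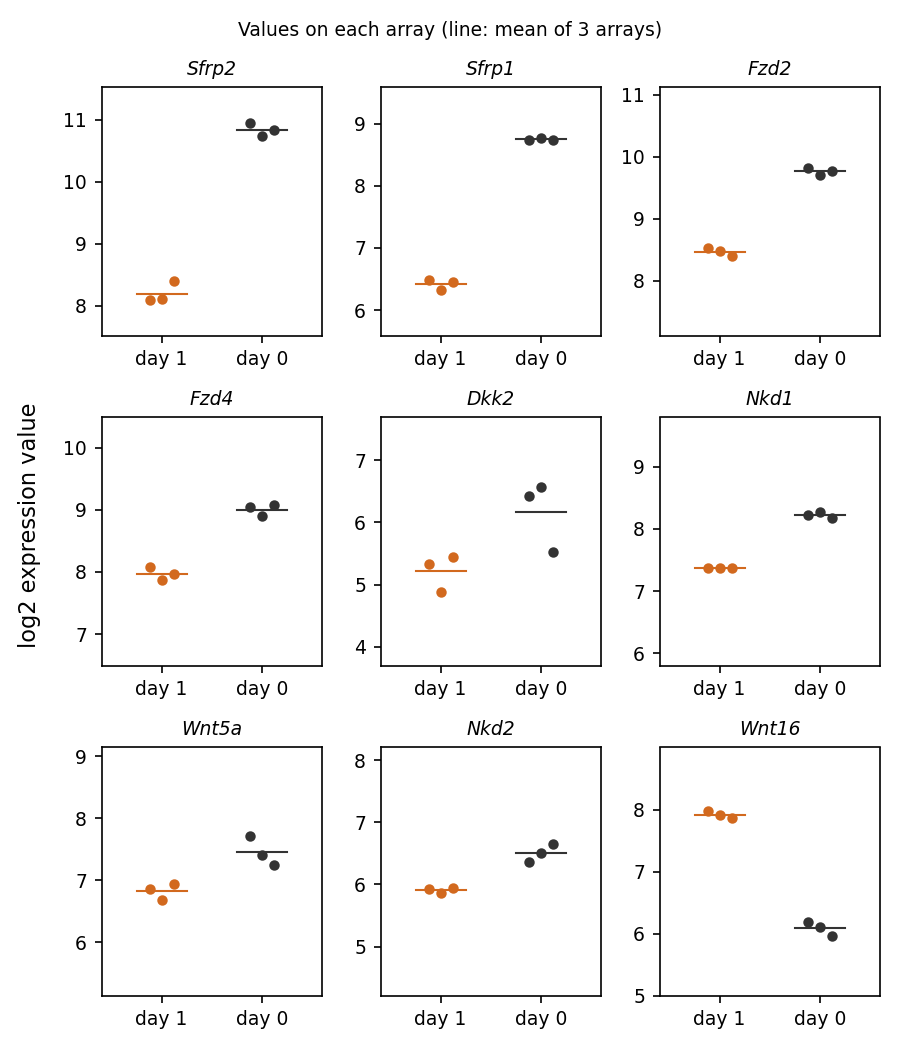
Log2 expression value (y axis, each panel spanning the same number of log2 units) on each of 3 day 1 arrays (orange, left) and 3 day 0 arrays (black, right) for the 9 genes past the threshold with a change of at least 1.5-fold; lines are group means. The groups are apart in all 9 panels, narrowly in Dkk2, where 1 day 0 array at 5.52 lies near the day 1 array at 5.44.

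The rest of the pathway was followed through 5 lists with 81 measured genes, of which 22 rose and 29 fell, beside 27.6% and 20.7% of all genes. The share that rose was close to that of all genes, and the share that fell was higher. Among 15 modulators of Wnt secretion and of the receptor complex 3 rose and 6 fell, with a median of -0.15. Cthrc1, a secreted protein that assists Wnt5a-type signalling, had 8.40, 8.38 and 8.29 on day 1, against 10.07, 10.04 and 9.95 on day 0 (-1.66 ± 0.06, adjusted p = 5.22e-07). Tpbg, a membrane glycoprotein known as an inhibitor of the beta-catenin branch in zebrafish and human cells, had 7.86, 7.77 and 8.00 on day 1, against 6.40, 6.09 and 6.18 on day 0 (1.65 ± 0.10, adjusted p = 5.43e-06). The list thus held large changes both ways. The glypican Gpc4 was at -0.97 ± 0.06 and the R-spondin receptors Lgr5 and Lgr4 at -0.54 ± 0.07 and -0.41 ± 0.06, all past the threshold. Wls, the carrier that brings Wnt proteins to the cell surface, rose by 0.45 ± 0.06 (adjusted p = 4.45e-04).

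Of 16 genes of the branches that act without beta-catenin 4 rose and 8 fell, beside 27.6% and 20.7% of all genes. Their median was -0.19. Mcam, an adhesion molecule of mural and endothelial cells that can bind Wnt5a, fell by 2.54 ± 0.07. The planar polarity gene Prickle1 was at -1.23 ± 0.06 and the calcium-dependent kinase gene Camk2g at -0.80 ± 0.06. The Wnt5a receptor gene Ror1 rose by 0.78 ± 0.06. All 4 passed the threshold, and kept their call under every alternative run. The count of 8 falls depended on scaling and on single arrays: it was 4 after median centring, 5 after quantile normalization, 4 without day 1 replicate 3 and 5 without any 1 of day 0 replicate 1, day 1 replicate 1 and day 1 replicate 2.

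Of 20 genes of the destruction complex and its regulators 6 rose and 5 fell, close to the 27.6% and 20.7% of all genes. Their median was 0.11. Ctnnal1, a relative of alpha-catenin, fell by 1.80 ± 0.06. Cby1, which binds beta-catenin, was at -0.94 ± 0.08, the kinase gene Gsk3b at -0.53 ± 0.08 and Amer1 at -0.41 ± 0.08, all past the threshold. The 6 rises were 2 with quantile normalization and 3 without day 0 replicate 2 or without day 1 replicate 3. Ctnnb1, the gene of beta-catenin itself, had 10.89, 10.85 and 10.81 on day 1, against 10.66, 10.65 and 10.62 on day 0 (0.21 ± 0.06, adjusted p = 0.0167). That call was lost with quantile normalization (0.12, adjusted p = 0.138) and without any 1 of day 0 replicate 3, day 1 replicate 1 and day 1 replicate 2 (adjusted p from 0.0507 to 0.0543).

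In the nuclear list 3 of 14 genes rose and 4 fell, beside 27.6% and 20.7% of all genes. Their median was -0.08. The beta-catenin co-activator gene Bcl9l fell by 0.99 ± 0.08. The TCF factor gene Tcf7l1, mostly a repressor, was at -0.63 ± 0.09 and the TLE family gene Tle5 at -0.46 ± 0.07, both past the threshold. The repressor gene Hbp1 rose by 0.82 ± 0.07. The co-activator gene Bcl9l and the mostly repressing Tcf7l1 were thus both among the falls.

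Genes often cited as beta-catenin targets, nearly all of which also answer to other signals, went both ways, with 6 of 16 up, 6 down and a median of -0.03. The shares over all genes were 27.6% up and 20.7% down. The hyaluronan receptor gene Cd44 had 9.88, 9.87 and 9.90 on day 1, against 7.38, 7.31 and 7.33 on day 0 (2.54 ± 0.06, adjusted p = 6.19e-08). Myc rose by 2.41 ± 0.17, the AP-1 subunit gene Fosl1 by 2.12 ± 0.14 and the cyclin gene Ccnd1 by 1.86 ± 0.07. Tnfrsf19, a receptor of the TNF family, had 6.56, 6.69 and 6.13 on day 1, against 8.36, 8.38 and 8.27 on day 0 (-1.88 ± 0.14, adjusted p = 1.47e-05). Also past the threshold were the falls of Jun (-1.85), Id2 (-1.35), Ephb2 (-0.74), Bambi (-0.71) and Ccnd2 (-0.69). The remaining rises were those of Plaur (1.76) and Ccn5 (0.93). Both rises and falls of such targets thus stood beside the falls of Axin2 and Nkd1 in the same arrays. Wls, Lgr4, Ctnnb1 and Ccnd1 are named for their place in the pathway, after their values were seen.

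**Figure D4:**
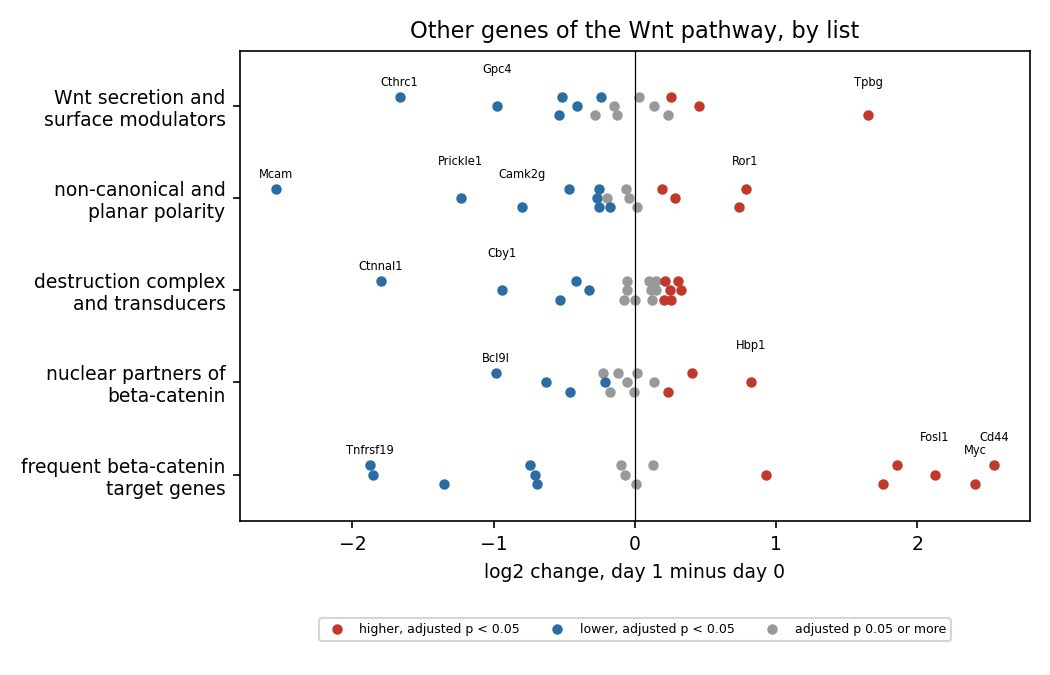
Log2 difference, day 1 minus day 0 (x axis), for 81 other genes of the pathway in 5 lists (rows; points are offset vertically only for visibility), coloured as rose, fell or not past an adjusted p of 0.05. The target list is the widest, from Tnfrsf19 at -1.88 to Cd44 at 2.54.

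Of 70 measured markers of the cell types a ring can hold, 16 rose and 33 fell. Over all genes 27.6% rose and 20.7% fell, so the markers rose less often and fell more often. Most macrophage, mesothelial, and Schwann cell and neuron markers did not pass (7 of 12, 5 of 8 and 5 of 7). All 10 measured smooth muscle markers fell, with Cnn1 at -5.73 and Actg2 at -4.08, and their mean log2 level was 8.52 to 8.67 over day 1 arrays, against 11.58 to 11.66 over day 0 arrays. Of 11 fibroblast and adventitial markers 3 rose and 8 fell (mean level 11.15 to 11.25 on day 1, against 11.60 to 11.71 on day 0), with Pi16 at -1.94 and Pdgfra at 1.85. Endothelial markers rose in 7 and fell in 2 of 10 (7.83 to 7.96 against 7.55 to 7.74). Egfl7 was at 0.87 and Cdh5 at 0.78, and the falls were Esam and Tek, both at -0.65. Tested against a 1.5-fold change (treat), no endothelial marker passed in either direction. Macrophage markers rose in 3 and fell in 2 of 12 (8.16 to 8.36 against 8.02 to 8.10), and 4 fell with quantile normalization. Cd68 was at 1.70 and Adgre1 at 0.61, and the falls were Csf1r at -0.46 and Cd163 at -0.40. Adipocyte markers rose in 1 and fell in 8 of 12 (5.95 to 6.09 against 6.79 to 6.92), with Ucp1 at -3.13 and Aqp7 at -2.69. The 1 adipocyte rise was 0 with any 1 of the 6 arrays left out, with quantile normalization, with every row as a feature and with the replicate block. Mesothelial markers rose in 1 and fell in 2 of 8, with Krt8 at -0.67 and Gpm6a at -0.65. The 1 mesothelial rise was 0 without any 1 of the 3 day 1 arrays, with the mean of a gene's rows and with the replicate block. Schwann cell and neuron markers rose in 1 and fell in 1 of 7, Uchl1 at 2.25 and Ncam1 at -1.17. The part of these shifts in the falls of Sfrp1, Sfrp2, Fzd2 and the other genes was not tested, and in RNA from whole rings fewer cells of a type and less RNA per cell cannot be told apart. Log2 array values have no true zero, so no marker can be called absent.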

How the data were processed

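RNA was labelled by the Affymetrix whole-transcript sense protocol from 200 ng of total RNA, per the labels. The deposited values, log2 expression per row and array, fill a table of 27342 rows by 6 arrays. That they are log2 was read from their range, 1.32 to 14.16. The submitters' processing notes name limma. The sources used here do not give the background correction, the normalization or the summarisation. With array medians of 5.87 to 5.95, no scaling was added. The day 1 arrays were slightly wider than the day 0 arrays. Their lower quartiles were 4.27 to 4.29, against 4.32 to 4.39 on day 0. Their upper quartiles were 7.93 to 7.95, against 7.83 to 7.87. With quantile normalization, which makes the distributions equal, 20 members fell and 2 rose. The number of arrays limits the precision.

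Rows were named through GEO's platform annotation, and symbols were updated by gene ID (15067 rows), accession (6) or kept (24). Rows with 1 symbol (15097) gave 14324 genes, each by its brightest row, and the 323 rows with several symbols and 11922 with none were left out. The comparison used lmFit and eBayes (limma 3.58.1, R 4.3.3), with neither filter nor block. The fit was tested on simulated data. Tables and figures used Python 3.11.15, pandas 2.3.3 and matplotlib 3.10.9.

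The members, lists and tests were chosen with earlier results of these data known. By rule, values in every array are given for members past the threshold with at least 1.5-fold change, and for the largest change in a role where none passed; those of other members were added after they were seen. Of each pathway list up to 4 genes past the threshold with the largest changes, and the largest against the majority, are named, and of each marker list 2. The endothelial and macrophage markers that fell, and the rest of the beta-catenin targets past the threshold, were added after they were seen. The settings also tried were quantile normalization, centring on medians, leaving out the dimmest 25% of genes or all under the median mean, averaging a gene's rows, testing every row, a trend with a robust prior, treat at 1.5-fold, a block on replicate number, and omission of single arrays.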

Additional observations from a re-analysis of the deposited data

How the results depend on the processing

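Of the 22 calls among the 44 genes, 18 held under every alternative that gave them a value, except treat. The filter on genes under the median mean gave none for 6 of these 18 (Wnt2, Wnt5b, Wnt10a, Rspo1, Nkd2 and Axin2). Treat, which asks for a change beyond 1.5-fold, kept 6: Sfrp1, Sfrp2, Fzd2, Fzd4, Nkd1 and Wnt16. The remaining calls, Wnt2b, Wnt6, Wnt9a and Dkk2, each lost their call under at least 1 setting given with them. With treat 5 of the 44 fell and 1 rose, beside 723 and 827 of all 14324 genes. Pathway list genes then fell in 11 and rose in 9 cases, and marker genes in 20 and 4. Leaving out genes under the median mean kept 18 of the 44 and 13 of the 22. Of those 18 genes 12 fell, and of all genes kept 1844 fell. With every row as a feature 4483 fell, from more rows tested. The dimmest 25% held 2 of the 44 and none of the 22.

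The count of rises among the 44 was 2, with Wnt7b beside Wnt16, under quantile normalization, median centring and without the dimmest 25% of genes. Over arrays left out in turn it ran from 1 to 2, reaching 2 without day 0 replicate 2 and without day 1 replicate 2, and the count of falls ran from 17 to 21. With the replicate number as a block 21 fell and 1 rose. The block moved Wnt6 out (adjusted p = 0.0578) and Rspo2 in (adjusted p = 0.0338). Deviations of same-numbered arrays correlated at 0.011, 0.019 and 0.036, and those of differently numbered arrays at -0.054 to 0.036. Whether same-numbered arrays shared animals or handling cannot be told from these values.

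Signs turned only for genes that did not pass in either setting. With quantile normalization Lrp5 was at -0.0545, Wnt3a at 0.0037, Wnt1 at 0.0249 and Fzd6 at -0.0378, and with median centring Fzd8 was at 0.0076. Over arrays left out in turn Dkk4 ran from -0.0518 to 0.1068, Dkk1 from -0.0694 to 0.1503, Wnt3a from -0.1476 to 0.0364, Wnt1 from -0.275 to 0.1479, Lef1 from -0.0307 to 0.1945 and Sfrp5 from -0.1763 to 0.0485. Wnt9b passed without day 0 replicate 1 (-0.27, adjusted p = 0.0422) and Wnt3 without day 0 replicate 2 (-0.24, adjusted p = 0.0487). The causes were not tested.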
